A study of Mus musculus with 3 samples.

Results

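The mast cell genes of this report are 10 genes tied to the secretory granules, the IgE receptor and the growth factor receptor of mast cells, with that receptor's ligand. They are Mcpt4, Cma1, Cpa3, Tpsb2, Tpsab1, Hdc, Fcer1a, Ms4a2, Kit and Kitl. Their probes were taken by the RefSeq accession that the scanner files give for each spot. Of the 10 genes, 9 had a probe, out of 21153 genes with a symbol on the array, and they had 10 of its 55678 probes. Tpsb2 had 2 probes, and the Kit probe was printed on 2 spots of each array. Tpsab1, which RefSeq lists as a transcribed pseudogene, matched no probe and is named only.

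RNA of brown adipose tissue, the fat that produces heat, was compared on 3 two-colour Agilent arrays. Each array carried RNA of an Ad-Lkb1 mouse (strain C57BL/6J per the labels) in Cy5, the red channel, and RNA of a wild-type littermate (strain C57BL/6 per the labels) in Cy3, the green channel. All animals were males of 10 weeks on regular chow, and the design text counts 3 biological replicates of each genotype. Lkb1, whose gene is Stk11, is the kinase deleted in the Ad-Lkb1 mice, and the promoter or Cre line behind the deletion is not given in the sources used here. The dye orientation was the same on all 3 arrays, so a dye effect and a genotype effect cannot be told apart, and the same holds for the strain names. Because whole tissue was used, fewer cells of a type and less RNA per cell cannot be told apart either.

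Mast cells are tissue-resident immune cells that develop from blood-borne progenitors and depend on the receptor tyrosine kinase Kit and its ligand, stem cell factor. Their granules store proteases, namely chymases, tryptases and carboxypeptidase A, together with histamine bound to proteoglycans. When antigen crosslinks IgE on the high-affinity receptor, the granules are released. In adipose tissue mast cells are known as a minor resident population near vessels and connective tissue.

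Ratios are given throughout as log2 of Ad-Lkb1 over the wild-type level. As a check of the labels, Stk11 stood at -1.26, -1.17 and -1.17 on arrays 1 to 3, so wild-type tissue held 2.30 times the Ad-Lkb1 level (limma, adjusted p = 0.0105). Ucp1, the uncoupling protein that defines brown fat, was 2.78-fold higher in Ad-Lkb1 tissue (adjusted p = 0.0114). Between 46.7% and 51.3% of the spots were well above background in a channel, which limits what dim genes can show. Ratios were tested against 0 over 19328 genes and unnamed features with Benjamini-Hochberg adjustment, and a gene was called at an adjusted p under 0.05. Background was 8.7% of all features called, 4.78% called higher and 3.92% called lower in Ad-Lkb1 tissue.

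Among the mast cell genes, the chymases Mcpt4 and Cma1 and the carboxypeptidase Cpa3 rose in Ad-Lkb1 tissue, and Kit fell. Mcpt4 had a log2 ratio of 1.47, Cpa3 of 0.99 and Cma1 of 0.66, whereas Kit had a log2 ratio of -1.22. Tpsb2, Hdc and Kitl did not pass the test. Fcer1a and Ms4a2, the chains of the IgE receptor that mark mast cells and basophils, stayed at or near background and were not tested. So 4 of the 7 tested genes were called, 3 higher and 1 lower, beside 8.7%, 4.78% and 3.92% of all features. The median log2 ratio of the 7 was 0.40, beside -0.0099 for all features. Cpa3 and Cma1 entered the test only through the red channel. The filter therefore favoured a ratio above 0 for them, and the count is given as a description. Of the 5 genes that were well above background in both channels on every array, Mcpt4 and Kit were called, 1 in either direction.

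**Figure D1:**
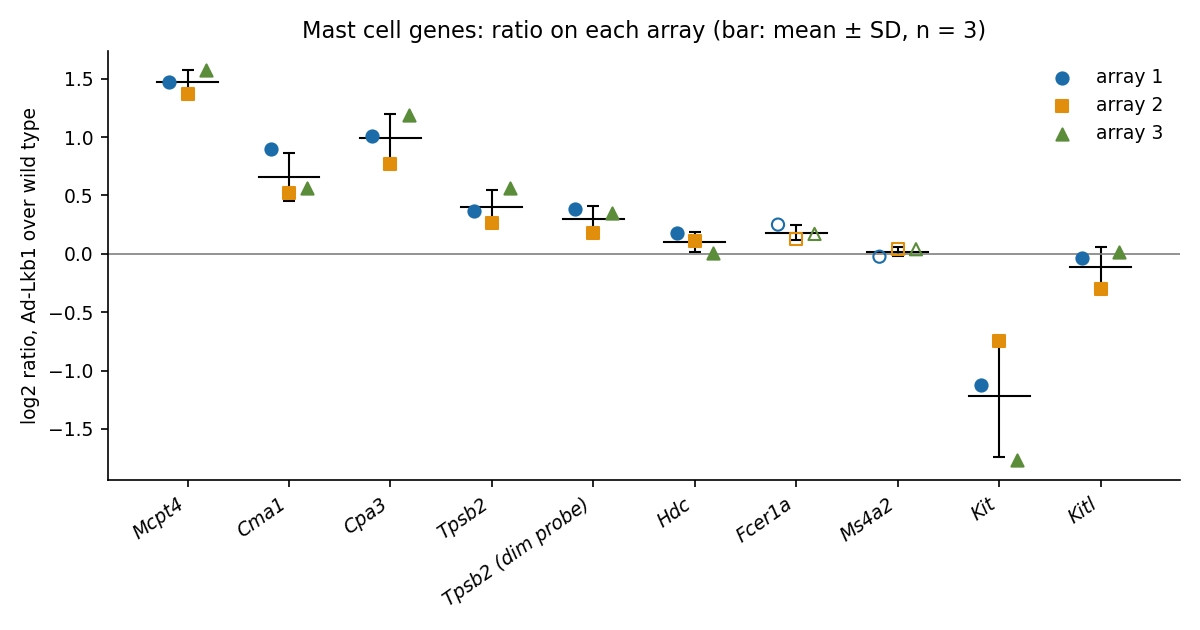
Log2 of the Ad-Lkb1 over the wild-type level (vertical axis) for each probe of the mast cell genes (horizontal axis) on the 3 arrays, with the mean and SD as bars; open symbols are probes that failed the filter on dim probes. Mcpt4, at 1.37 to 1.57, lies above every other probe on each array, and Kit, at -1.77 to -0.75, lies below every other probe.

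The promoters of the 4 called genes are shown because blood-cell GATA factors, which bind GATA motifs, are known regulators of mast cell genes. Each is the 250 bases before the gene's start from RefSeq (build GRCm38.p6), written along the gene's own strand, with GATA matches in capitals. The GATA letters searched were AGATAA and its variant AGATAG, then TGATAA with its variant TGATAG, all on both strands. The E-box letters were CATGTG or, as the other form, CACGTG, on both strands, and were found in none of the 4.
Mcpt4, chr14:56062311-56062560, minus strand: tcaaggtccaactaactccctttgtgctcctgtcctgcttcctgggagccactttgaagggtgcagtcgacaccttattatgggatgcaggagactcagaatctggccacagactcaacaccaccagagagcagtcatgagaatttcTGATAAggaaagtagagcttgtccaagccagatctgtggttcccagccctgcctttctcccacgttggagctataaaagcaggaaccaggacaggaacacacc
Cma1, chr14:55944676-55944925, minus strand: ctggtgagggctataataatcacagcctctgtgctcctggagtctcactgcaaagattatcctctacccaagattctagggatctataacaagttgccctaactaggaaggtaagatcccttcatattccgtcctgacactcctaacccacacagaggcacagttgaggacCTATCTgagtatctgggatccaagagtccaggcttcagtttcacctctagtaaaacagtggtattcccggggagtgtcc
Cpa3, chr3:20242182-20242431, minus strand: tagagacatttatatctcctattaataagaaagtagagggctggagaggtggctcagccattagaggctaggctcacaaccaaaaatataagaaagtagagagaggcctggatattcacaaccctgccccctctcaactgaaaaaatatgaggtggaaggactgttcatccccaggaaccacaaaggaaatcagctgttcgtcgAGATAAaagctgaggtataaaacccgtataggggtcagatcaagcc
Kit, chr5:75574737-75574986, plus strand: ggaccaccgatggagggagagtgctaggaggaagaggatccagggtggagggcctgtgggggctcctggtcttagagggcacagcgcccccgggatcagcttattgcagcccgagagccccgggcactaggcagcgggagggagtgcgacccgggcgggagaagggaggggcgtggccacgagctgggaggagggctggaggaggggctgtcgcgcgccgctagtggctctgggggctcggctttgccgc

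The 3 genes that rose each had 1 GATA match. It began 103 bases before the start in Mcpt4, 79 bases before it in Cma1, where it lies on the other strand, and 46 bases before it in Cpa3. Kit, for which RefSeq lists 2 starts and the first was used, had 0 matches in this window. Of the 32851 promoters of this length, 26.5% hold a GATA match and 17.6% an E-box match, so a match is common. Among the other genes with a promoter entry, Hdc had 1 GATA match, Fcer1a 1 and Ms4a2 3, while Kitl had 0. Fcer1a was the single gene of the 8 with an E-box match.

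The chymases are serine proteases of the granule, and Mcpt4 encodes the main chymase of connective tissue mast cells in mice. Its spot gave a green (wild-type) signal of 161, 124 and 145 on arrays 1 to 3 over a local background of 45, 42 and 42. Its red (Ad-Lkb1) signal was 210, 178 and 236 over 17. Both channels were well above background on all 3 arrays. The log2 ratios were 1.47, 1.37 and 1.57, the closest set among the 4 called genes. The mean ratio was 2.76-fold (log2 1.47 ± 0.102 SD, n = 3, 95% interval 1.27 to 1.67, limma adjusted p = 0.0105), and 149 of the 19328 features had a higher ratio. With the software's own processed signals, which subtract background without an offset, the ratio was 4.28-fold (adjusted p = 0.0168).

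Cma1, the other chymase of connective tissue mast cells, was seen in the red channel alone. Its green signal was 51, 48 and 54 over a background of 43, 43 and 44, well above background on 0 of the 3 arrays. Its red signal was 54, 41 and 44.5 over 16, 17 and 17, well above background on all 3. The log2 ratios were 0.90, 0.52 and 0.56, so all arrays lay on the same side and array 1 was the highest. The measured ratio was 1.58-fold (log2 0.66 ± 0.207 SD, n = 3, 95% interval 0.39 to 0.93, limma adjusted p = 0.0354), from mean normalised log2 levels of 6.03 in wild type and 6.69 in Ad-Lkb1 tissue. The wild-type level has only a bound, and the probe's own dim signal sets it, so 1.58-fold is not a firm minimum; the log2 ratio was 0.52 with median centring and 0.54 without array 1. With processed signals the log2 ratios were 3.01, 2.87 and 2.32, a mean of 6.66-fold, so the size of the change depends on how background is handled. When dim probes were not filtered, 36798 features were tested and Cma1 was not called (adjusted p = 0.0634).

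Cpa3 encodes mast cell carboxypeptidase A, which is stored with the chymases. Its green signal was 57.5, 49.5 and 56 over 41, 40 and 40, well above background on arrays 1 and 3 only. Its red signal was 66.5, 55.5 and 86 over 16, well above background on all 3 arrays. The log2 ratios were 1.01, 0.77 and 1.19, above 0 on every array. The mean ratio was 1.99-fold (log2 0.99 ± 0.207 SD, n = 3, 95% interval 0.72 to 1.26, limma adjusted p = 0.0197). With processed signals the log2 ratios were 2.84, 2.74 and 2.97, a mean of 7.21-fold (adjusted p = 0.0148). Both kinds of signal come from the same spots, and Cpa3 passed the filter only through the red channel. Their shared direction is therefore a description, and the size differed between them.

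**Figure D2:**
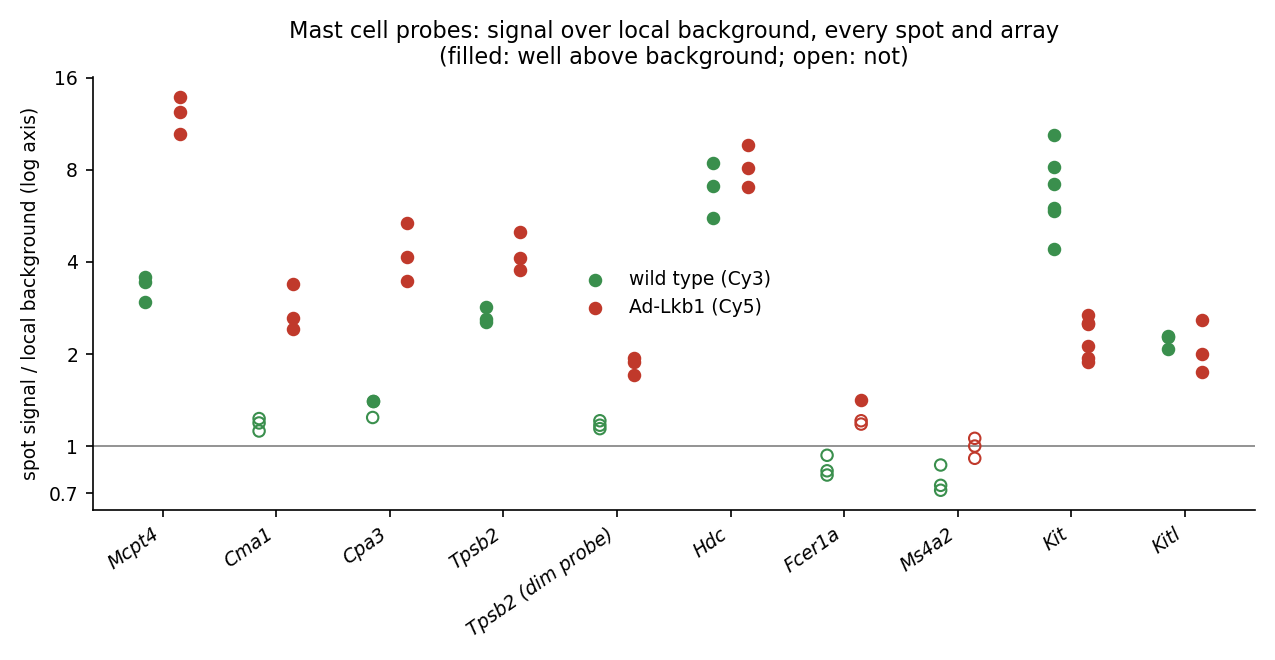
Spot signal divided by local background (vertical log axis) for each mast cell probe (horizontal axis) in the wild-type channel (green) and the Ad-Lkb1 channel (red), with 1 point per spot and array; filled points are well above background. Values of different dyes are not comparable as levels; the figure shows that Cma1 and the dim Tpsb2 probe had no filled wild-type point, and that Fcer1a had 1 filled point and Ms4a2 had 0.

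Tpsb2 encodes a mast cell tryptase, a protease that forms tetramers on heparin. Of its 2 probes, the brighter gave a green signal of 114.5, 126 and 125.5 over 45, 44 and 48, and a red signal of 64, 70 and 90 over 17, 17 and 18. It was well above background in both channels on all 3 arrays. Its log2 ratios were 0.37, 0.26 and 0.56, with a mean of 0.40 (SD 0.149, n = 3, 95% interval 0.17 to 0.63) that missed the threshold (limma adjusted p = 0.0636). The dim probe was well above background on 0 arrays in green and 3 in red, with log2 ratios of 0.38, 0.18 and 0.35. Both probes therefore lay above 0 on all arrays. Tpsb2 was called with a normexp offset of 10 (0.62 on the log2 scale, adjusted p = 0.0451) and without background subtraction (0.56, adjusted p = 0.0472). With median centring its log2 ratio was 0.038.

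Hdc encodes histidine decarboxylase, the enzyme that makes histamine. Its green signal of 244.5, 284 and 345 stood over 44, 40 and 41, and its red signal of 112.5, 138 and 154 over 16, 17 and 16. Both channels were well above background on all 3 arrays. The log2 ratios were 0.18, 0.11 and 0.0044, with a mean of 0.10 (SD 0.089, n = 3), and the test was not passed (limma adjusted p = 0.44). The 95% interval ran from -0.095 to 0.29, which does not reach the ratios of Mcpt4, Cpa3 or Cma1 as measured. Under median centring Hdc had a log2 ratio of -0.43 (adjusted p = 0.0226), while the median of all features moved to -0.42, so relative to all features it lay near 0 there as well.

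The high-affinity IgE receptor has an alpha chain that binds IgE, encoded by Fcer1a, and a signal-amplifying beta chain, encoded by Ms4a2. Fcer1a had a green signal of 42, 39 and 37, below its local background of 45, 47 and 46. Its red signal was 24, 20 and 20.5 over 17, well above background on array 1 only. Ms4a2 had a green signal of 33.5, 33 and 39 over 45, 46 and 45 and a red signal of 15.5, 17 and 18 over 17, well above background on 0 arrays in either channel. Neither gene has a usable ratio, and a difference in their level was not detectable at this signal. The defining receptor chains of mast cells and basophils were thus at or near background in both genotypes.

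Kit, the receptor for stem cell factor, went the other way from the proteases. On arrays 1, 2 and 3 its first spot gave a green signal of 288, 228 and 418, and its second spot 281.5, 203.5 and 402, over backgrounds of 39 to 49. The red signal was 40, 43 and 30 on the first spot and 36, 45.5 and 33 on the second. All spots were well above background in both channels, and the spots of each array lay close to each other. The log2 ratios were -1.12, -0.75 and -1.77, below 0 on each array and with the widest spread among the tested mast cell genes. On average the wild-type level was 2.32 times that of Ad-Lkb1 tissue (mean -1.22 on the log2 scale, SD 0.519, n = 3, 95% interval -1.77 to -0.66, limma adjusted p = 0.0421), and 65 of the features had a lower ratio. With processed signals the wild-type level was 5.30 times that of Ad-Lkb1 tissue, but Kit missed the threshold (adjusted p = 0.0544), as it did with the deposited value table (adjusted p = 0.0543) and without the filter on dim probes (adjusted p = 0.0931).

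Kitl encodes stem cell factor, which fibroblasts and endothelial cells are known to make. Its green signal was 92, 105 and 103 over 44.5, 46 and 45, and its red signal 34, 31.5 and 44 over 17, 18 and 17, well above background throughout. The log2 ratios were -0.035, -0.30 and 0.011, on both sides of 0. The mean was -0.11 (SD 0.169, n = 3, 95% interval -0.35 to 0.13, limma adjusted p = 0.501). Kitl was the single gene of the 7 whose sign differed between arrays. With median centring it was called at -0.34 (adjusted p = 0.0495), less far below 0 than the median of all features.

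The calls rest on few arrays. Without array 1 or without array 2, 0 features of the whole table passed the adjusted threshold, so no mast cell gene did, although 3928 and 3563 features had an unadjusted p under 0.05, among them 5 of the 7 mast cell genes in either case. The mean log2 ratios without array 1 were 1.47 for Mcpt4, 0.98 for Cpa3, 0.54 for Cma1 and -1.26 for Kit. Without array 3 all 4 genes were called, with adjusted p-values from 0.0061 for Mcpt4 to 0.0415 for Cma1. In all 13 alternatives, Mcpt4, Cpa3 and Cma1 kept a ratio above 0 and Kit a ratio below 0 wherever they were tested.

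**Figure D3:**
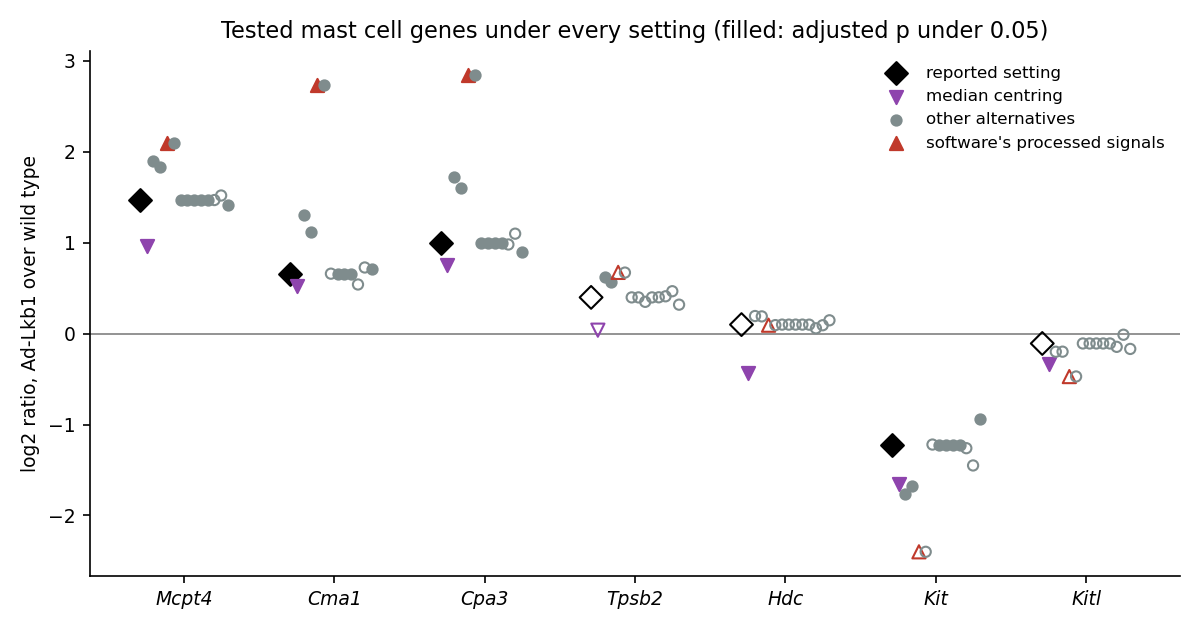
Log2 of the Ad-Lkb1 over the wild-type level (vertical axis) of the 7 tested mast cell genes (horizontal axis) under the reported setting (diamonds), median centring, the software's processed signals and the other alternatives; filled symbols have a limma adjusted p under 0.05. Mcpt4 ranges from 0.96 to 2.10 and Kit from -2.40 to -0.94, and Hdc is called only with median centring, at -0.43.

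Mcpt4 and Cma1 lie in a cluster of chymase and granzyme genes on chromosome 14, and their neighbours show which of the related proteases had signal. RefSeq lists 17 genes from Cma1 to Gzmb, all with a probe, and 5 of them were tested. Cma2, the next protein-coding gene after Cma1, was above background in both channels on all arrays and rose 1.72-fold (log2 ratios 0.66, 0.73 and 0.95, limma adjusted p = 0.0227), a call lost with median centring (log2 ratio 0.26, adjusted p = 0.169). Gm5801 at 0.037 and Gzmb at -0.13 did not pass the test. The mean of Gzmb covers log2 ratios of 0.63, 0.47 and -1.49, and its green channel was well above background on 2 arrays only. Of the others, 10 were above background on no array in either channel, among them the mucosal mast cell proteases Mcpt1 and Mcpt2 and the basophil protease Mcpt8. In the tryptase cluster on chromosome 17, Tpsb2 was the single tested gene of 5, and Tpsg1, a membrane-bound tryptase, was above background in red on 2 arrays and in green on 0. Probe sequences were not used here, so signal shared between related proteases was not tested.

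The other granule genes moved in both directions. Of 16 listed protease and granule genes, 10 were tested, 2 were higher and 2 lower, beside 4.78% and 3.92% of all features. Their median log2 ratio was 0.19. Besides Cma2, Cd63, a tetraspanin of granule and lysosome membranes found in many cells, rose (log2 ratio 0.80, adjusted p = 0.0427). Ext1, which polymerises heparan sulfate chains, and Ndst2, which sulfates the heparin of mast cell granules, fell by 0.59 and 0.38 on the log2 scale (adjusted p = 0.0248 and 0.0455). Median centring moved Cd63 to 0.088 (adjusted p = 0.721) and the list's median to -0.41. With processed signals Cd63, Ext1 and Ndst2 missed the threshold (adjusted p = 0.0657, 0.0668 and 0.106), and Cma2 was the single call.

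Among 16 genes of IgE receptor signalling, 14 were tested and 1 was called, no larger a share than the 8.7% of all features called. The list's median log2 ratio was 0.44, and it was 0.57, 0.64 and -0.05 on arrays 1 to 3. Syk, the kinase that the receptor recruits, rose (log2 ratios 1.1, 1.1 and 0.56, limma adjusted p = 0.0325), but missed the threshold with processed signals (adjusted p = 0.0541) and without the filter on dim probes (adjusted p = 0.0673). The count of calls in this list varied widely: it was 8 without array 3, 0 without array 1 or array 2, 5 with median centring, 3 with an offset of 10 or without background subtraction, and 0 with processed signals. Fcer1g, the gamma chain that the IgE receptor shares with Fc receptors of macrophages, had log2 ratios of 2.26, 2.75 and 0.83 and did not pass the test; it is named after its values were seen, because it completes the receptor. Fcer1g was well above background in both channels on all arrays, unlike Fcer1a and Ms4a2.

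Kit receptor signalling genes were spread around 0. All 18 were tested, 1 was higher and 2 lower, beside 4.78% and 3.92% of all features, and the median log2 ratio was 0.02. Rack1, a scaffold protein of ribosomes and kinases, rose by 0.74 (adjusted p = 0.0293). Stat5a, a transcription factor activated by Kit, and Sh2b2, an adaptor, fell by 0.74 and 0.53 on the log2 scale (adjusted p = 0.0216 and 0.0372). With median centring Rack1 stood at 0.044 (adjusted p = 0.81), the list's median moved to -0.43 and 10 genes were called, while with processed signals 0 were.

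Of 30 mast cell lineage, receptor and mediator genes, 18 were tested, 3 rose and 0 fell, beside 4.78% and 3.92% of all features. Their median log2 ratio was 0.18. Ltc4s, the leukotriene C4 synthase of mast cells, eosinophils and macrophages, rose 2.09-fold (log2 ratios 1.08, 0.97 and 1.14, limma adjusted p = 0.0119). Alox5ap, the 5-lipoxygenase activating protein of leukocytes, rose 2.94-fold (1.80, 2.10 and 0.77, adjusted p = 0.0443), a call lost with processed signals (adjusted p = 0.067). Lmo4, a LIM-only transcription cofactor, had a log2 ratio of 0.80 (adjusted p = 0.0237). With median centring Ltc4s and Lmo4 lost their calls, at 0.35 (adjusted p = 0.0697) and 0.086 (adjusted p = 0.505), although the list then held 6 calls. Of the 12 that were not tested, 5 were at background in both channels on all arrays, among them Gata1 and Mrgprb2, the receptor of mast cells for basic secretagogues. Gata2, another GATA factor, was well above background in both channels on all arrays. Its log2 ratios were -0.22, -0.3 and -0.24, without a call, and its part in the ratios of the mast cell genes was not tested.

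The histamine receptor and breakdown genes had 4 tested members of 7 and 0 calls, beside 8.7% of all features, with a median log2 ratio of -0.16. Hnmt, which methylates histamine, had log2 ratios of -1.04, -0.67 and -0.42 (limma adjusted p = 0.0507), and Slc22a3, an amine transporter, a mean of -0.21. Mast cell growth and recruitment factors had 6 tested members of 11, likewise 0 calls and a median of 0.39. Ccl2, a chemokine that draws monocytes and mast cell progenitors, had log2 ratios of 3.40, 3.45 and 1.14 (adjusted p = 0.0503). Tgfb1 had a mean log2 ratio of 0.34 (adjusted p = 0.0729). By unadjusted limma p under 0.05, 2 histamine genes and 4 growth and recruitment factors passed, and the alternatives called 0 to 2 genes of either list.

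Markers of other cells moved beside the mast cell genes. The counts of these marker lists stand beside 4.78% of all features called higher and 3.92% called lower. Macrophage markers rose in 6 of 8 genes and fell in 0, with medians of 2.02, 2.12 and 1.12 on arrays 1 to 3, and their summed processed level was 5130 to 9100 in wild type and 18800 to 20900 in Ad-Lkb1 tissue. The 4 of smallest p were Trem2 with a log2 ratio of 3.39, Cd68 with 2.24, Adgre1 with 1.88 and Mrc1 with 1.63. Not all markers followed. Cd14 had log2 ratios of 0.29, 0.13 and -0.5, and the probes of Itgam lay on both sides of 0, from -0.56 to 0.64. Processed signals called 4 macrophage markers, and the fit without the filter on dim probes called 1. Without array 1 or without array 2 the count was 0. The part of macrophages in the ratios of the mast cell genes was not tested.

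**Figure D4:**
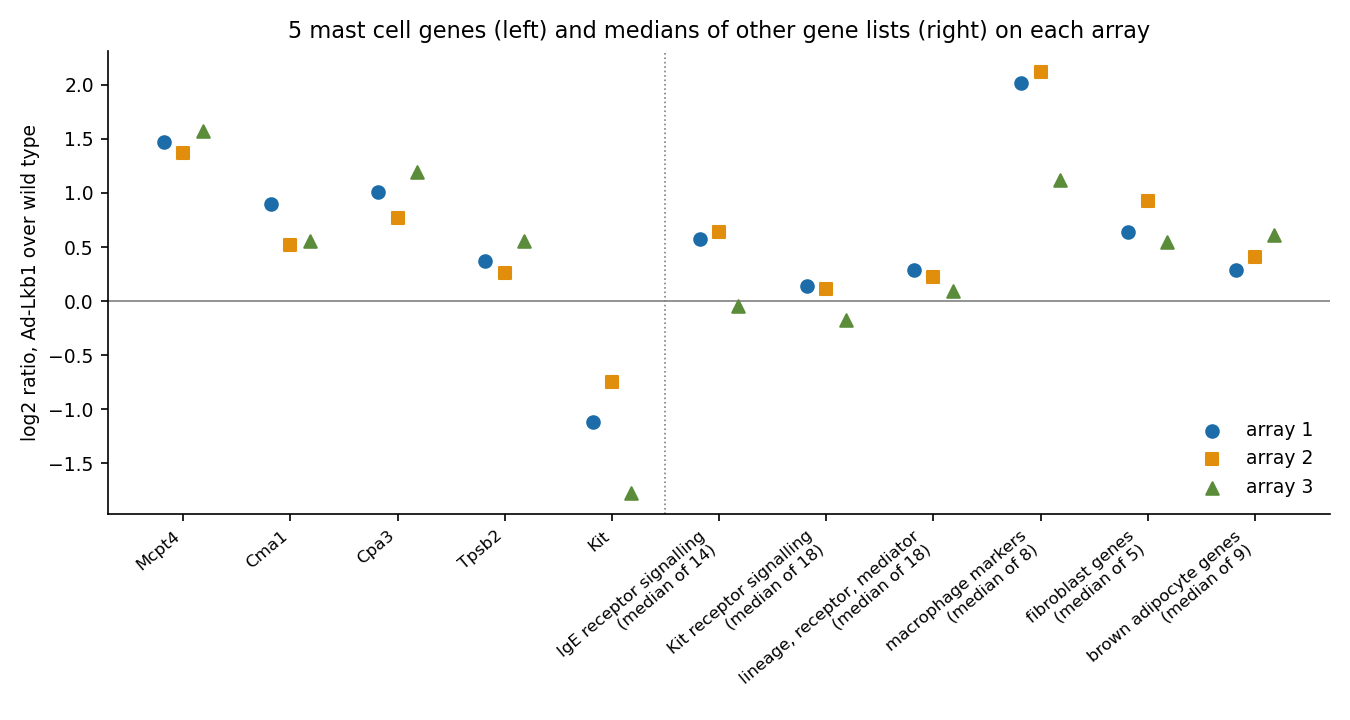
Log2 of the Ad-Lkb1 over the wild-type level (vertical axis) on the 3 arrays for 5 mast cell genes (left) and for the medians of other gene lists (right). Macrophage markers were at 1.12 on array 3 against 2.02 and 2.12 on arrays 1 and 2, and Mcpt4 was between 1.37 and 1.57.

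Basophils and eosinophils share granule and receptor genes with mast cells. Of 6 basophil markers 1 was tested and 0 were called by limma (1 at an unadjusted p under 0.05). At background in both channels on all arrays were 4 of them, Mcpt8 included. No basophil probe was well above background in green on any array. The summed processed level was 41.0 to 48.3 in wild type and 83.5 to 113 in Ad-Lkb1 tissue. The wild-type sum is therefore near-background signal, and the sums give no firm difference in level. The single tested one, Cd200r1, well above background in red alone, had a log2 ratio of 0.31 (limma adjusted p = 0.0751). Of 8 eosinophil markers 3 were tested and 2 were called higher, the ribonuclease genes Ear2 at 1.24 and Ear1 at 0.46. Ear6, also tested, was not called and lay below 0 on all arrays, at -0.11, -0.068 and -0.017. Ear1 was well above background in green on 1 array, so it entered the test only through the red channel and its ratio is a description; with both channels required, Ear2 was the single call of 2 tested. Processed signals called 0 eosinophil markers, as did the fits without the filter on dim probes, without array 1 or without array 2. The defining markers Siglecf, Prg2 and Epx were at background, and the list's sum was 134 to 509 and 407 to 991. Of 9 neutrophil markers 5 were tested and 2 rose, S100a8 at 2.17 and S100a9 at 2.39, with sums of 16100 to 27100 and 19300 to 31900. Retnlg and Elane lay above 0 on all arrays without a call, and Csf3r had log2 ratios of 0.048, -0.57 and -0.055. Mpo and Ltf were at background. S100a8 and S100a9 lost their calls with processed signals (limma adjusted p = 0.0596 and 0.0545) and without the filter on dim probes (0.0822 and 0.0912). The part of all these cells in the ratios of the mast cell genes was not tested.

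Kit is also known from melanocytes, blood cell precursors, innate lymphoid cells, endothelium and interstitial cells of Cajal. Of 6 melanocyte genes 4 were tested and 0 called by limma (0 at an unadjusted p under 0.05), with summed processed levels of 195 to 232 in wild type and 174 to 305 in Ad-Lkb1 tissue. Of 5 haematopoietic precursor genes all were tested and 0 called (2 at an unadjusted p under 0.05), with sums of 6540 to 14900 and 13100 to 15000. Endothelial genes had 1 rise and 1 fall among 8, namely Vwf at 0.40 and Kdr at -0.42, with sums of 9210 to 13000 and 8160 to 10400. The other Kdr probe had log2 ratios of -0.34, -0.97 and -1.17. The count of endothelial calls was 0 with processed signals or with any 1 array left out, and 6 with median centring. Of 8 innate lymphoid and T cell genes 6 were tested and Il7r was called higher, with sums of 3570 to 6280 and 3520 to 3730. Il7r was well above background in green on 0 arrays and in red on 3, so it entered the test only through the red channel, and its log2 ratio, 0.98 as measured and 4.32 with processed signals, has no firm size. Ano1, a chloride channel that marks Cajal cells, fell by 1.16 on the log2 scale (ratios -1.19, -1.41 and -0.88, limma adjusted p = 0.0198). Etv1, the other gene of this list, did not follow it, with log2 ratios of 0.12, 0.34 and -0.11 and no call. The sum of Ano1 and Etv1 was 4040 to 4720 in wild type and 1900 to 2410 in Ad-Lkb1 tissue. Which cells carried the Kit signal was not tested.

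Fibroblasts and brown adipocytes complete the picture of the tissue around mast cells. Fibroblast genes rose in 3 of 5, with Lum at 1.5, Col1a1 at 0.74 and Pdgfra at 0.57, and their summed level was 19300 to 26800 in wild type and 33500 to 46900 in Ad-Lkb1 tissue. Dcn and Pdgfrb were not called. Dcn had log2 ratios of 0.26, 1.34 and 0.86, and Pdgfrb lay on both sides of 0, at 0.056, -0.031 and -0.2. Brown adipocyte genes rose in 4 of 9, namely Ucp1 at 1.48, Cox7a1 at 0.96, Cidea at 0.55 and Elovl3 at 0.45, with sums of 734000 to 992000 and 974000 to 1270000. Of the genes of this list that were not called, Plin1 (-0.37, -0.23 and -0.19) and Lipe (-0.24, -0.59 and -0.3) lay below 0 on all arrays. Fabp4 (0.29, 0.41 and 0.75) lay above 0 on all arrays, and Adipoq and Pparg lay on both sides of 0. With median centring Col1a1, Pdgfra and Cox7a1 lost their calls, at 0.04 (adjusted p = 0.838), 0.13 (0.43) and 0.28 (0.323), and the fibroblast median moved from 0.74 to 0.12. Vwf, Cidea and Elovl3 turned below 0 there, at -0.25, -0.12 and -0.26. With processed signals Lum and Ucp1 kept their calls, and Col1a1, Pdgfra, Cox7a1, Cidea and Elovl3 did not. Kitl, the fibroblast and endothelial product among the mast cell genes, stood at -0.11 beside them and did not pass the test.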

How the data were processed

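The deposited scanner files hold median spot and background intensity per channel, made by the authors with Agilent Feature Extraction 11.5, per the submitters' processing notes. Per the file headers, processed intensity (background-subtracted, dye-normalised) and a red over green ratio as log10 stand beside them. Its values are also those of the deposited value table (log10). The software's flags for spots well above background, per the file headers, were used as given.

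In R 4.3.3 with limma 3.58.1, median signals were background-corrected (normexp, offset 50) and loess-normalised array by array (control spots at weight 0) to give log2 ratios. Probes were kept where 1 channel or both stood well above background on every array (25031 of 55678), and a gene was represented by its brightest kept probe. Ratios were fitted with lmFit and eBayes, adjusted over 19328 features. The fit was tested on simulated data. Alternatives were median centring, other offsets and filters, processed signals, the value table and leaving out an array. Median signals stand in for mean signals.

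Symbols came from RefSeq (GRCm38.p6). All mast cell genes are named, with Stk11 and Ucp1, and of each other list up to 4 called genes of smallest p, or up to 2 if 0 were called. Other genes of these lists were added after their values were seen and are not in the counts of named genes below. Members and lists were chosen with earlier results of these data known. All arrays shared 1 slide and 1 scan, so no batch could be tested.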

Additional observations from a re-analysis of the deposited data

How the results depend on the processing

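Over all features, 1681 were called, 923 higher and 758 lower (54.9% higher). Median centring gave 10097, with 389 higher and 9708 lower (3.85% higher), and moved the median of all features to -0.42; processed signals gave 807, with 528 higher and 279 lower (65.4% higher); the deposited value table gave 806, with 526 and 280; and no filter on dim probes gave 1033, with 541 and 492. An offset of 10 and no background subtraction shifted the share higher to 66.9% and 64.5%. Leaving out 1 array gave 0 to 2052 calls, 0 to 1332 higher and 0 to 720 lower, with 0 when array 1 or array 2 was left out. Of the mast cell genes 4 were called in the reported fit, 2 (Mcpt4 and Cpa3) without the filter, where more features are tested, 2 (Mcpt4 and Kit) of 5 when both channels had to be above background, which removes Cpa3 and Cma1, and 0 to 4 when 1 array was left out. Median centring turned the direction of Hdc (-0.432), Tgfb1 (-0.000783), Vwf (-0.253), Cd34 (-0.184), Cidea (-0.121) and Elovl3 (-0.261); the cause of these shifts was not tested. Of the ratios of tested mast cell genes under an alternative, 73 kept their direction and their side of the threshold, 12 lost the call, 3 gained it and 1 reversed. Of those of the other named genes, 347 kept both, 143 lost the call, 21 gained it and 5 reversed. Across all alternatives the calls ran from 0 to 5 in the other granule list, 0 to 8 in the IgE receptor list, 0 to 10 in the Kit signalling list and 0 to 6 in the lineage list. The test was a paired one, because each array pairs an Ad-Lkb1 with a wild-type sample and the ratio within the array is the value tested. Signal near background limits Fcer1a, Ms4a2 and the wild-type level of Cma1, and 3 arrays limit the rest.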
